A study of Bos taurus with 8 samples.

Results

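The genes described here are those whose level was lower after 7 days of heat in Tharparkar cattle and higher after 7 days of heat in crossbred cattle. The members were chosen by their measured values: a level of at least 5 counts per 1000000 (CPM) in the highest of 4 libraries, a log2 change from day 0 to day 7 of -1 or less in Tharparkar, and one of 1 or more in crossbred, on the log2(CPM + 1) scale. Of 24596 listed gene IDs, 9835 reached 5 CPM in a library and 105 of these met both folds. A further 12 IDs passed both folds but stayed below 5 CPM. The 22 IDs that the choice excludes by number would not have met it, so they removed no gene.

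RNA was sequenced from peripheral blood mononuclear cells (PBMCs) of Tharparkar and of crossbred cattle, at day 0 before heat and at day 7 of heat exposure. Per the labels, each library is RNA of 5 animals pooled by breed and day, so the animals cannot be seen one by one. The breeds that make up the crossbred animals, and the sex and age of any animal, are not given in the sources used here. There are 2 files for each of the 4 groups, and their counts differed by less than sampling noise. For each gene, the difference between the files of a group was measured by a chi-square statistic, whose median over genes would be 1 relative to independent reads of the same library, and it was 0.0762 to 0.112 here. The files were therefore averaged to 1 library per group, n = 1, with totals of 5201318 to 8571528 expected counts. No difference between groups has a replicate check, and intervals below cover counting error only.

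PBMCs are the lymphocytes and monocytes of blood, the cells of adaptive immunity and the circulating precursors of macrophages. Tharparkar is a zebu breed of the arid northwest of the Indian subcontinent, and zebu cattle are known for tolerating heat better than European dairy breeds. Heat exposure in cattle is known to raise stress hormones and to shift both the mix of circulating leukocytes and their production of chaperones and inflammatory mediators. In these bulk libraries, fewer cells of a type and less RNA per cell cannot be told apart. The tables pair no gene ID with a name, and the table of names used here gives no Ensembl ID for any cattle gene, so it matched 0 of the 105 genes whatever they are, and no gene function, cell type marker or promoter sequence could be assigned. The labelled cell type was thus not checked against markers.

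The 105 genes took a larger share of all counts in crossbred at day 7 and in Tharparkar at day 0 than in the other libraries. Their share was 0.690% in Tharparkar at day 0 (95% Wilson interval 0.684 to 0.696) and 0.270% at day 7 (0.265 to 0.274). In crossbred it was 0.333% at day 0 (0.329 to 0.336) and 1.04% at day 7 (1.03 to 1.05). The 2 files of a group gave nearly the same share, for example 0.332% and 0.333% in crossbred at day 0. The 10 most abundant genes of the set held between 55.5% and 55.6% of it in each of the 4 libraries. Without them, the shares were 0.307% and 0.120% in Tharparkar and 0.148% and 0.462% in crossbred, in the order of the days, and the choice of genes also set the direction of these within each breed.

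The median level over the 105 genes was 20.9 CPM in Tharparkar at day 0 and 7.31 CPM at day 7. In crossbred it was 11.1 CPM at day 0 and 29.4 CPM at day 7. The levels spanned a wide range, from 5.49 to 1153 CPM in crossbred at day 7. Counting each gene by its highest library, 15 genes lay under 10 CPM, 67 from 10 to under 100 CPM, and 23 at 100 CPM or more. These tiers held 1.08%, 1.05% and 1.12% of all genes of the same highest level. The highest library is where these genes are high and the choice put a minimum on it, so nothing is read from these shares. The median changes in the tiers were -1.34, -1.21 and -1.30 log2 units in Tharparkar and 1.37, 1.56 and 1.57 in crossbred. The choice cut every change at 1 log2 unit, so nothing is read from these medians either.

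**Figure D1:**
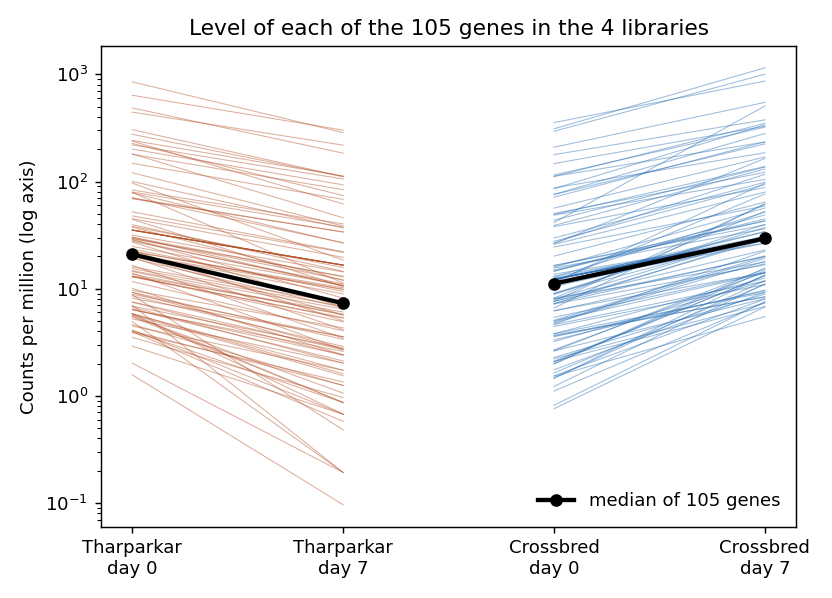
Level of each of the 105 genes in CPM (log axis) in the 4 libraries, with a thin line joining the days of a breed for each gene and a thick black line for the median. The Tharparkar median goes from 20.9 to 7.31 and the crossbred median from 11.1 to 29.4, directions fixed by how the genes were chosen.

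In Tharparkar, 202 of the 9835 genes fell by at least 1 log2 unit, or 2.05% of them. In crossbred, 694 rose by at least 1, or 7.06%. The 105 genes are the overlap of these lists, 1.07% of the 9835, and they make up 52.0% of the Tharparkar list and 15.1% of the crossbred list. The lists share no library, but the overlap is the choice itself and nothing is read from it. Of the Tharparkar list, 93 genes were within 1 log2 unit of no change in crossbred and 4 fell there by at least 1. By sign alone, 168 of the 202 rose in crossbred, as did 59.0% of the 9835, and the median crossbred change of the list was 1.04. Of the crossbred list, 589 genes were within 1 log2 unit of no change in Tharparkar and 0 rose there by that much. By sign alone, 577 of the 694 fell in Tharparkar, as did 4409 of the 9835, with a median of -0.44. Both sign counts include the 105 genes, whose signs the choice fixed, so nothing is read from them. The reverse pattern, up in Tharparkar and down in crossbred by the same folds, was met by 60 genes.

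The median change of the 105 genes was -1.23 log2 units in Tharparkar, 2.34-fold lower at day 7, with a range from -2.75 to -1.001. In crossbred it was 1.56, 2.94-fold higher, with a range from 1.01 to 3.58. Over all 9835 genes the medians were 0.05 and 0.11. A fall of at least 2 log2 units in Tharparkar was reached by 8 genes, against 12 of all 9835. A rise of at least 2 in crossbred was reached by 23 genes, against 52 of all 9835. The 105 genes are among the 9835 and had already passed 1 log2 unit in each breed, so nothing is read from these counts. Many genes sat close to the Tharparkar limit: the 3 nearest inside had changes of -1.001, -1.002 and -1.003 there with 1.099, 1.42 and 1.28 in crossbred, and the 3 nearest outside had -0.992, -0.992 and -0.991 with 1.60, 1.56 and 1.59. Across the 105 genes, those with a deeper fall in Tharparkar tended to have a larger rise in crossbred (Pearson's r = -0.35, Spearman's rho = -0.40, n = 105). The genes were cut at a limit on both axes and share the 4 libraries, so this is a description.

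**Figure D2:**
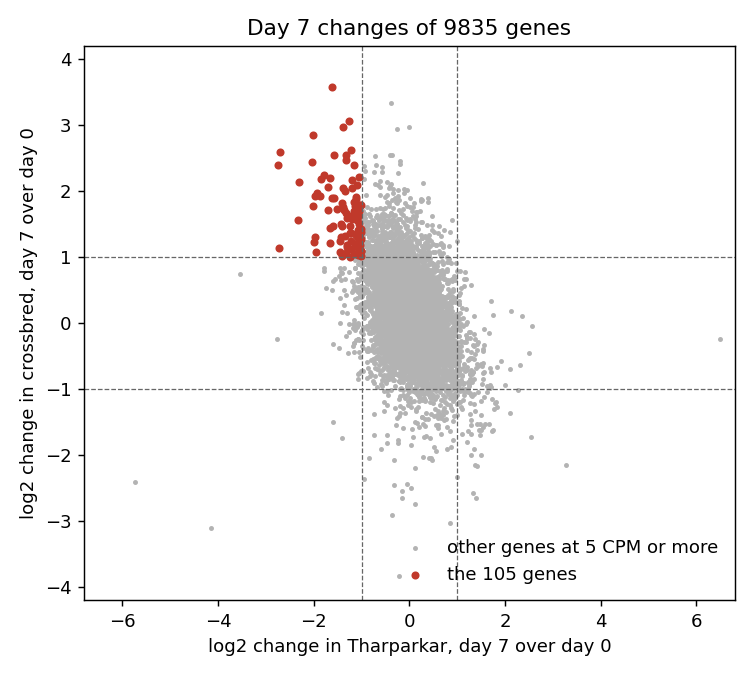
Log2 change from day 0 to day 7 in Tharparkar (horizontal) and crossbred (vertical) for 9835 genes, on the log2(CPM + 1) scale. The dashed lines mark 1 log2 unit in each direction, and the 105 genes are the red points of the upper left corner, most of them near the Tharparkar limit.

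Of the 4 IDs named here, ENSBTAG00000009812 had the largest change in the breed where its change was smaller, and ENSBTAG00000013125 had the highest CPM of the set in crossbred at day 7. The other 2 IDs were named after their values were seen, for the largest rise in crossbred and the largest fall in Tharparkar. All 4 had whole counts in every file, so they show no sign of reads split with a similar gene.

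ENSBTAG00000009812, of 1482 bases, had 529 and 533 counts in the Tharparkar files of day 0, then 58 and 59 in those of day 7. Its crossbred files held 223 and 229 counts at day 0, then 1310 and 1291. Crossbred at day 7 was the highest library, Tharparkar at day 7 the lowest, and the files of different groups did not overlap. Between the days of each breed this held for all 105 genes, and the files of a group are not replicates. Ratios of CPM here use mean counts rounded to whole numbers. In Tharparkar the gene was 7.11-fold lower at day 7 by this ratio (95% exact Clopper-Pearson interval from the 2 counts, 5.41 to 9.49). In crossbred it was 6.22-fold higher (5.39 to 7.19). At day 0 it stood higher in Tharparkar by 1.59 log2 units (1.36 to 1.82), and its day 7 log2 ratio of Tharparkar over crossbred was -3.88 (-4.28 to -3.50).

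ENSBTAG00000013125, of 1313 bases, was at 849 and 854 CPM in the files of Tharparkar at day 0 and at 287 and 286 CPM at day 7. In crossbred it was at 308 and 314 CPM at day 0 and at 1151 and 1156 CPM at day 7. The low library of each breed was thus at nearly the same level, while the high library of crossbred exceeded that of Tharparkar. Its ratio was 2.97-fold lower at day 7 in Tharparkar (2.81 to 3.15) and 3.71-fold higher in crossbred (3.55 to 3.88). Per length it reached 1069 TPM (a level per length, which sums to 1000000 over the genes of a library) in crossbred at day 7, where the median over the 105 genes was 24.4 TPM.

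ENSBTAG00000011600, of 2509 bases, had the largest rise in crossbred, from 348 and 362 counts in the files of day 0 to 4004 and 4030 at day 7. In Tharparkar it went from 810 and 809 counts down to 202 and 198. It was 12.2-fold higher in crossbred (11.0 to 13.7) and 3.14-fold lower in Tharparkar (2.69 to 3.69). Its 3 lower libraries lay between 38.5 and 121 CPM, and crossbred at day 7 stood apart at 507 CPM. Per length it was at 232 TPM in crossbred at day 7, below the 1069 TPM of ENSBTAG00000013125.

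ENSBTAG00000014113, of 827 bases, had the largest fall in Tharparkar on the log2(CPM + 1) scale. It went from 46 and 48 counts at day 0 to 1 count in each file at day 7. In crossbred, 17 counts in both files of day 0 compare with 118 and 116 in those of day 7. With a single count at day 7, the Tharparkar ratio of 36.5-fold lower has an interval from 6.24 to 1471. The crossbred rise was 7.44-fold (4.45 to 13.2). In all, 6 of the 105 genes had 3 counts or fewer in Tharparkar at day 7, and none did in the other 3 libraries.

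**Figure D3:**
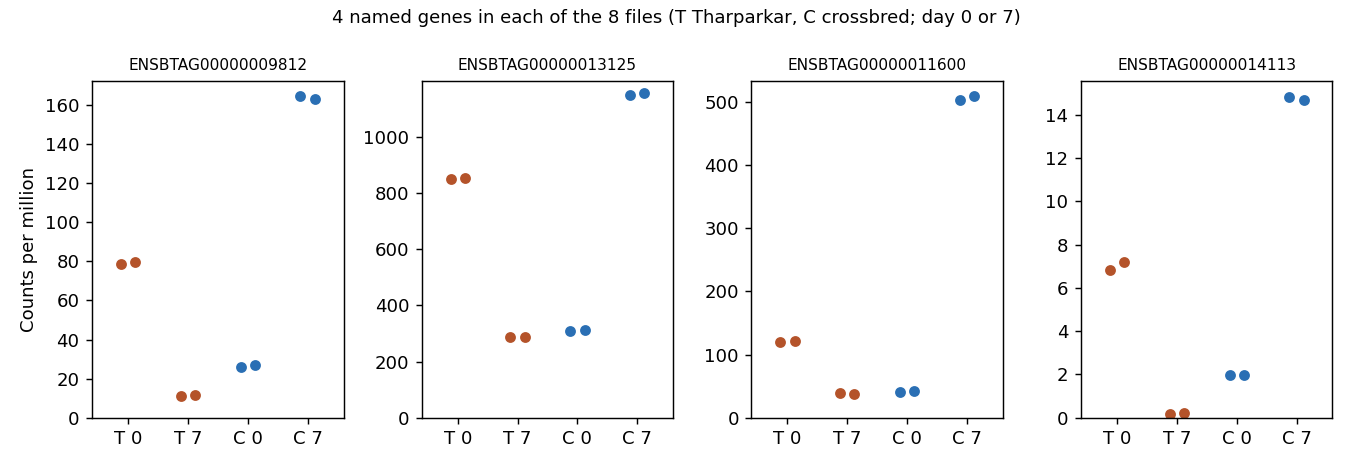
Level in CPM of the 4 named genes in each of the 8 files, the files of a group drawn side by side (orange Tharparkar, blue crossbred) and each vertical axis starting at 0. In all 4 genes crossbred at day 7 is the highest group, Tharparkar at day 0 comes next and Tharparkar at day 7 is the lowest.

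The next genes in abundance, by CPM in crossbred at day 7, differed in which library was lowest. The second was at 486 and 184 CPM in Tharparkar and at 294 and 1004 CPM in crossbred, in the order of the days. The third was at 639 and 302 CPM in Tharparkar and at 355 and 866 CPM in crossbred. In the fourth, crossbred at day 0 was the lowest library, at 209 CPM against 219 CPM in Tharparkar at day 7, and in the seventh these levels were 112 and 113 CPM. Among the 10 most abundant, changes ran from -1.93 to -1.02 log2 units in Tharparkar and from 1.08 to 3.58 in crossbred. The 10 genes with the largest smaller change included low ones, such as a gene at 4.92 and 0.192 CPM in Tharparkar and at 0.758 and 6.75 CPM in crossbred, with 1 count left in Tharparkar at day 7.

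For all 105 genes the 95% interval of the CPM ratio lay below 0 log2 units in Tharparkar and above 0 in crossbred. It lay wholly beyond 1 log2 unit for 33 genes in Tharparkar, for 69 in crossbred and for 27 in both. No such count over all genes is given, so whether these counts are unusual is not known. Those 27 had median changes of -1.70 and 1.93 log2 units and a median highest level of 52.7 CPM, against 29.4 CPM for the other 78 genes. Picking genes by their intervals favours larger changes and higher counts, so nothing is read from this contrast. For the remaining genes the depth leaves it undetermined whether both changes reach 1 log2 unit. The intervals use the counts that chose the genes, so their direction was set by the choice and is no support for it. On the log2(CPM + 1) scale, which damps differences at low levels, the 2 files of a group differed by at most 0.23 units in crossbred and by at most 0.56 in Tharparkar, where 7 genes at day 7 and 1 at day 0 differed by 0.25 or more.

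**Figure D4:**
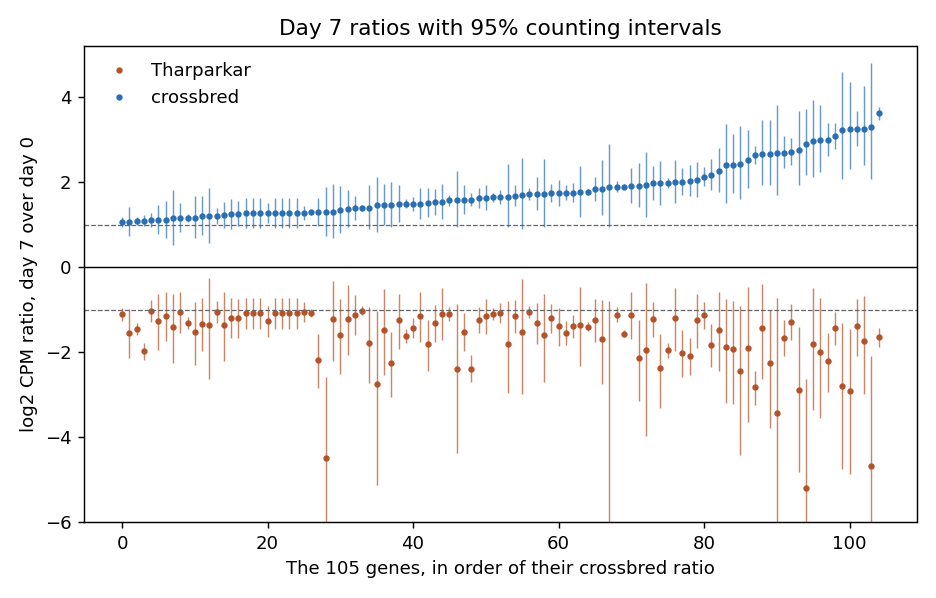
Log2 CPM ratio of day 7 over day 0 for the 105 genes in order of their crossbred ratio, with 95% counting intervals (orange Tharparkar, blue crossbred). The dashed lines mark 1 log2 unit, intervals are cut at -6, a gene whose mean count in Tharparkar at day 7 was 0.5 has no Tharparkar point, and 27 genes have both intervals wholly outside the dashed lines.

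The levels at a given day were also compared between the breeds. At day 0, before heat, 104 of the 105 genes were higher in Tharparkar than in crossbred, 44 of them by at least 1 log2 unit, where 1.31% of the 9835 genes were. The counting interval of the day 0 ratio lay above 0, Tharparkar higher, for 93 genes, held 0 for 11 and lay below 0 for 1. No interval count over all genes is given here, but 39.2% of the 9835 were higher in Tharparkar at day 0. Among the 3239 genes that went down in Tharparkar and up in crossbred by any amount, 71.5% were higher in Tharparkar at day 0. The median difference at day 0 over the 105 genes was 0.92 log2 units, 1.89-fold, against -0.10 over all genes. The exception was at 8.88 CPM in Tharparkar and 15.6 CPM in crossbred at day 0. At day 7 all 105 were lower in Tharparkar, 98 of them by at least 1 log2 unit, where 10.1% of all genes were. Of the 3239 genes with these signs, 97.0% were lower in Tharparkar at day 7, so the signs alone nearly fix this direction. The median difference at day 7 was -1.99 log2 units, 3.99-fold lower in Tharparkar, against -0.14 over all genes. The 60 genes of the reverse pattern had mirrored differences, with medians of -1.35 at day 0 and 1.42 at day 7. All 60 were lower in Tharparkar at day 0. These differences use the values that chose the genes, so nothing is read from them, and no test was run.

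The choice leaves 6 possible orders of the 4 libraries, and 83 of the 105 genes had the same one: crossbred day 7, Tharparkar day 0, crossbred day 0, Tharparkar day 7. That is 79.0%, while the order was found in 35.3% of those 3239 genes. The order is read from the values that chose the genes, so nothing is read from this contrast. Crossbred at day 7 was the highest library for 95 of the 105 genes, as it was for 87.2% of the 3239, and Tharparkar at day 7 the lowest for 86, as it was for 68.2%. The neighbours in the order differed in how far they stood apart. The middle pair, Tharparkar and crossbred at day 0, had the interval above 0 for those 93 genes. No interval counts over all genes are given for any of these pairs, so whether the counts are unusual is not known. The interval of the ratio between the high libraries, crossbred at day 7 and Tharparkar at day 0, held 0 for 25 genes. It lay above 0, crossbred higher, for 79. By CPM on library totals, crossbred at day 7 exceeded Tharparkar at day 0 in 95 of the 105 genes and in 72.6% of the 9835. The TMM factors, another scaling of the libraries, were 1.09 for the former library and 0.930 for the latter. TMM would thus lower every ratio of the high libraries, and how many genes would stay above 0 was not tested. Between the low libraries (crossbred before heat, Tharparkar after it) the interval held 0 for 55 genes. It lay above 0, crossbred higher, for 40 and below 0 for 10. For those 55 genes these 2 levels could not be told apart at this depth. Crossbred at day 0 exceeded Tharparkar at day 7 in 86 of the 105 genes and in 55.0% of the 9835. On library totals, the median difference was 0.61 log2 units between the high libraries and 0.40 between the low ones, crossbred being higher in both. Over all 9835 genes these medians were 0.20 and 0.05. The 60 genes of the reverse pattern had medians of -0.03 and -0.06 for the same ratios; the difference from the 105 genes was not tested.

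Some IDs of the set carried identical values. For 7 of the 105 IDs, the expected counts were identical in each of the 8 files, and each of the 7 is 153 bases long. Per file they had 243 and 230 counts each in Tharparkar at day 0, 88.2 and 84.2 at day 7, 107 and 103 in crossbred at day 0 and 239 and 228 at day 7. They therefore carry 1 set of values, and do not count as 7 independent genes. Summed, they were at 247 and 116 CPM in Tharparkar and at 85.7 and 206 CPM in crossbred, in the order of the days. They differ from most of the set in having Tharparkar at day 0 as the highest library, which holds for these 7 and 3 others. Their effective length, the part of a gene where a read can start, was only 8.15 to 8.96 bases, which makes their TPM of 2054 to 3966 in Tharparkar hard to compare with other genes. With these IDs taken as 1, the set is 99 genes, with median changes of -1.25 in Tharparkar and 1.58 in crossbred, and 98 of 99 were higher in Tharparkar at day 0.

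Expected counts that are not whole arise where the estimation divides reads between similar genes. Such counts, in at least 1 file, were found in 22 of the 105 genes, or 21.0%, against 10.8% of the 9835 genes and 7 of the 60 genes of the reverse pattern. With the identical IDs taken as 1, it was 16 of 99, or 16.2%. The difference in these shares was not tested. The values of these genes are uncertain, since the division depends on the annotation. The 83 genes with whole counts had median changes of -1.25 and 1.56 log2 units, and the 22 others -1.07 and 1.41. With the identical IDs taken as 1, the 16 others had medians of -1.25 and 1.81, so the smaller changes of the 22 rest on those IDs.

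Gene length was not used in the choice. The median length was 1767 bases in the set, 1872 with the identical IDs taken as 1, 1964 over the 9835 genes and 1876 in the reverse pattern. The 9835 genes were divided by length into classes of 20% each. Of the class from 1161 to 1706 bases, 1.53% were in the set, and of the longest class, from 3190 bases, 0.661%. The shortest class gave 1.12% with 22 genes, of which the 7 identical IDs are a part. All genes in the shortest class had median changes of 0.10 in Tharparkar and 0.03 in crossbred, and in the longest class of 0.03 and 0.17. Within the set, length was only weakly related to the change (Spearman's rho = -0.06 in Tharparkar and 0.14 in crossbred, n = 105). More than 1 transcript was listed for 12 of the 105 genes, or 11.4%, against 9.81% of all.

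**Figure D5:**
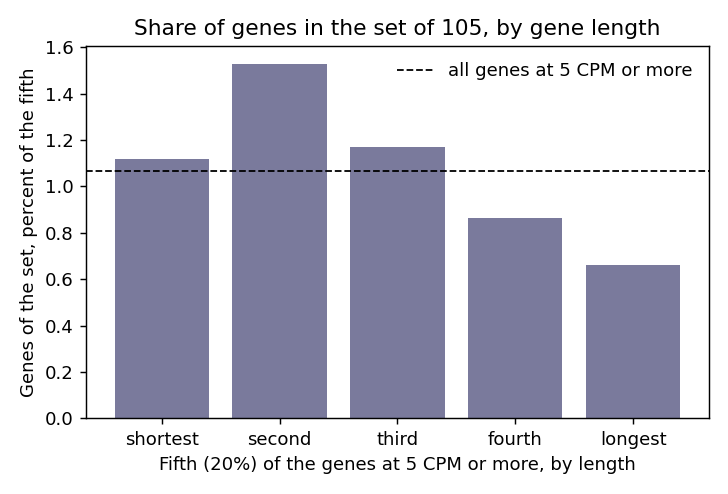
Share of genes that belong to the set of 105, in percent, in classes of 20% of the 9835 genes by length (bars), with the share over all of them as a dashed line. The share is highest at 1.53% in the second class and lowest at 0.661% in the longest.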

How the data were processed

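RNA from PBMCs of 2 breeds and 2 days was sequenced (4 pools of 5 animals, 8 files). Per the submitters' processing notes, Bowtie2 and RSEM were used; versions, genome build and annotation are not given in the sources used here. Per the file headers, the deposited tables hold expected counts, which may be fractional, and TPM, with gene length and effective length. The authors scaled TPM by effective length, so very short genes are inflated. All other quantities were computed here. The files of a group were averaged after the chi-square check (genes with 20 counts or more, limit 1.5). CPM used the library total, with a pseudocount of 1 CPM for log2 changes. Ratios of CPM and their exact Clopper-Pearson intervals use the rounded mean counts, without a pseudocount. With 1 library per group no test was run. The steps were tested on simulated data with 200 changed genes. Python 3.11.15, scipy 1.17.1, edgeR 4.0.16 (TMM) and DESeq2 1.42.0 (size factors) were used.

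The members and lists were chosen with earlier results of these data known. The planned 17 pathway lists, 11 marker lists and 8 promoter motifs need gene names or promoter sequences and were not evaluated. The rule for named genes takes the first by smaller change and by abundance, with at most 2 IDs lacking a symbol.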

Additional observations from a re-analysis of the deposited data

Results flagged for a closer look

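In all 105 genes the libraries of day 7 moved down in Tharparkar and up in crossbred. This opposition is what the choice of genes asked for, and the difference between the breeds was not tested.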

How the results depend on the processing

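The number of genes meeting the choice stayed between 83 and 129 under other scalings, a pseudocount of 0.5 CPM, other CPM minimums, whole counts only, and each file left out. A pseudocount of 5 CPM gave 38, since it shrinks the changes of low genes. Of the 105 genes, 93 were kept with TMM, 93 with DESeq2 size factors and 73 with TPM, and 98 to 105 with a file left out. Under all of these and a pseudocount of 0.5 CPM together 65 were kept, and 34 with a pseudocount of 5 CPM as well. With other scalings, pseudocounts, left-out files and identical IDs taken as 1, the medians over the 105 genes, whose signs within each breed the choice fixed, were -1.33 to -0.92 in Tharparkar, 1.21 to 1.58 in crossbred, and for Tharparkar minus crossbred 0.71 to 1.03 before heat and -2.06 to -1.50 after it. TMM moved the median of all genes by -0.07 in Tharparkar, -0.11 in crossbred, and for Tharparkar minus crossbred by 0.11 before and 0.16 after heat. No such shift is given for the ratios between the high libraries or between the low ones, which rest on library totals. The crossbred log2 ratio of ENSBTAG00000013125 was 1.77 with TMM, below its counting interval. Taking identical IDs as 1 and using the files of only 1 number (99 and 110 genes) were chosen after seeing the data. No paired analysis was possible because each group is 1 library and no test was run. Depth limits ratios that rest on few counts, such as those of Tharparkar at day 7, and variation between animals is not measured.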
